A study of Mus musculus with 3 samples.

Results

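The report follows 9 genes of the epithelial to mesenchymal transition through gastrulating mouse embryos: Cdh1, Epcam, Cdh2, Vim, Snai1, Snai2, Zeb1, Zeb2 and Twist1. They were taken by symbol from a list drawn up with earlier results of these data known, and all 9 were found among the 32285 genes counted. The cells come from normal embryos of the ARC strain, dissociated with trypsin. Each of 3 groups is 1 droplet library, named by embryonic day: E7.0, then E7.25, then E7.5 posterior, for which the labels name the posterior part alone. Nothing in them says how many embryos were pooled. Stage, library and dissected region therefore cannot be told apart, and no spread between embryos is known.

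In the primitive streak, epiblast cells lose their epithelial junctions and leave the layer as mesoderm or endoderm. E-cadherin (Cdh1) and Epcam hold epithelial cells together, N-cadherin (Cdh2) and the filament protein vimentin (Vim) mark migrating cells, and the SNAIL, ZEB and TWIST factors repress epithelial genes, above all Cdh1, through E-box sequences. T (Brachyury) is switched on in the streak, and Mesp1, a transcription factor of nascent mesoderm, marks cells that are leaving it.

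A cell needed 1000 detected genes and no more than 10% mitochondrial UMIs, which left 7941 of 10232 barcodes at E7.0, 5194 of 6173 at E7.25 and 8438 of 11468 in E7.5 posterior. The median kept cell had 11295, 8298 and 9254.5 unique molecular identifiers (UMIs, 1 per captured transcript). A score that compares cells with simulated doublets marked 504, 216 and 570 kept cells as predicted doublets, and these stay in unless stated. Kept cells of different libraries shared few barcodes: 8 between E7.25 and E7.0, 22 between E7.5 posterior and E7.25 and 14 between E7.5 posterior and E7.0. Clusters, made without the 9 genes, T and Mesp1, were mostly from 1 library each and are named only as likenesses to marker lists. Levels are CPM, a gene's UMIs scaled in the usual way to all UMIs of the cells summed. The brackets are exact 95% intervals that cover counting error only, and with 1 library a group no test was possible. Reads were counted at the 3′ end, so levels carry no gene length, but genes may differ in capture.

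The letters CAGGTG, or CACCTG on the opposite strand, are the E-box that SNAIL and ZEB proteins bind. RefSeq promoter windows on GRCm38.p6, from 250 bases before to 50 after the start, were read for Epcam, Vim, Snai1, Zeb2 and Twist1. No window was at hand for Cdh1 or Snai2, and Cdh2 and Zeb1 were not read. The pair below is shown because these letters occur in it, in capitals, and because Epcam and Snai1 stand at opposite ends of the switch described later. Epcam is at chr17:87635729-87636028 and Snai1 at chr2:167537945-167538244, both on the plus strand.
Epcam: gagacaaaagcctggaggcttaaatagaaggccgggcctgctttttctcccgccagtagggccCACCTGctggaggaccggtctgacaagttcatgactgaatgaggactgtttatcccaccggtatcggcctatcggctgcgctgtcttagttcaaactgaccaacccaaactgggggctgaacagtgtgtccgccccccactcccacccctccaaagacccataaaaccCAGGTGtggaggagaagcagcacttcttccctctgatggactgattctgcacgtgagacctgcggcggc
Snai1: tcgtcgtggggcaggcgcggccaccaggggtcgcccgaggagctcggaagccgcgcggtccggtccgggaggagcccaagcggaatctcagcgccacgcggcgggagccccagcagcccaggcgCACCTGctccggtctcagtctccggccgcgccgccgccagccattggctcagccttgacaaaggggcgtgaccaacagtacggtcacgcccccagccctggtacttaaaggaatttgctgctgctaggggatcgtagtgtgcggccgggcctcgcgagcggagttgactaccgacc

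Epcam holds the letters at 187 and 19 bases before its start, and Snai1 holds them once, 126 bases before. They do not occur in the windows of Vim and Twist1 or in the 4 windows of Zeb2. Of 32851 windows of 300 bases, 20.2% hold the letters at least once and 2.88% hold them 2 or more times. A match describes the sequence and is no evidence of binding.

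The genes lie on 6 chromosomes of GRCm38, by their identifiers in GENCODE release M21. Cdh1 is at chr8:106603351-106670246, Epcam at chr17:87635979-87651129 and Cdh2 at chr18:16588877-16809246. Vim (chr2:13573927-13582826), Snai1 (chr2:167538195-167542814) and Zeb2 (chr2:44983632-45117395) share a chromosome. Snai2 is at chr16:14705852-14709385, Zeb1 at chr18:5591860-5775467 and Twist1 at chr12:33957671-33959829.

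Over whole libraries Epcam was the most abundant of the 9 in each. Epcam stood at 294 [291 to 297] CPM at E7.0, 220.1 [216 to 224] at E7.25 and 238 [234 to 241] in E7.5 posterior, and Cdh1 at 47.97, 62.4 and 68.8 CPM. Cdh2 had 55.2, 29.4 and 42.9 CPM, Vim 56.2, 115 and 100.01 CPM, and Snai1 49.04, 24.02 and 34.8 CPM. The order of Cdh1 and Cdh2 thus differs between libraries, with Cdh2 above Cdh1 at E7.0 alone. Zeb2 stood at 38.3, 46.1 and 55.7 CPM and Twist1 at 18.02, 22.8 and 15.03 CPM. Zeb1, at 3.43, 6.10 and 4.59 CPM, and Snai2, at 0.194, 1.74 and 1.34 CPM, were rare, so little can be said of them in small groups of cells. Mesp1 had 603, 292 and 311 CPM, and T had 98.1, 141 and 223 CPM.

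A gene was called in a comparison when its level differed 2-fold, among genes at 20 CPM or more on at least 1 side. Of the 7 genes so measured in E7.25 against E7.0, Vim was higher (log2 ratio 1.03 [0.97 to 1.08]) and Snai1 lower (-1.03 [-1.12 to -0.94]). Over all genes 2.78% were called higher and 1.52% lower, and the median log2 ratio was 0.12. None of 7 was called in E7.5 posterior against E7.25 (1.01% of genes higher, 3.29% lower), and none of 6 in E7.5 posterior against E7.0 (0.568% higher, 1.0% lower). With weighted trimmed mean factors in place of totals, the ratios of E7.25 against E7.0 moved by -0.20, which takes Vim below the 2-fold limit and brings Cdh2, at -0.91 by totals, past it. With cells of at most 5% mitochondrial UMIs alone, Snai1 had -0.96 and was no longer called.

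Levels of Cdh1, Cdh2 and Snai1 ranged more widely across cell classes than across libraries. Cdh1 and Epcam were high in most epithelial classes. Streak-like cells of E7.0 stood below both library levels, at 45.1 CPM of Cdh1 and 217 CPM of Epcam, beside 49.6 CPM of Cdh2. Epcam was also below its library level in visceral endoderm-like cells of E7.25 (177 CPM) and E7.5 posterior (223 CPM). The same held for node-like cells of E7.5 posterior (204 CPM). Cdh1 had 72.2, 86.6 and 84.3 CPM in epiblast-like cells of the 3 libraries and 109 CPM in the caudal epiblast-like cells of E7.5 posterior. In definitive endoderm-like cells it had 69.3, 118 and 133 CPM. Mesoderm-like cells held 5.85 CPM of Cdh1 at E7.0, 15.999 at E7.25 and 27.6 in E7.5 posterior, where 10.3% of them were predicted doublets (5.11% and 0.469% in the earlier libraries). With predicted doublets removed, 6.67% of Cdh2-positive and 8.64% of Cdh2-negative mesoderm-like cells of E7.5 posterior held a Cdh1 UMI, against 2.29% and 3.06% at E7.0. Epcam was between 345 and 459 CPM in epiblast-like and between 418 and 475 CPM in definitive endoderm-like cells, against 54.3 to 79.2 CPM in mesoderm-like cells.

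Cdh2 was not confined to mesoderm. Its mesoderm-like level was 101, 73.6 and 82.1 CPM, but definitive endoderm-like cells, which kept Cdh1 and Epcam, held 91.6 CPM at E7.0, 39.0 at E7.25 and 54.8 in E7.5 posterior. The clusters behind that class differ between libraries. A single cluster, whose second-best class was primitive streak, held 748 of its 1100 cells at E7.0. It held 29 of 380 at E7.25 and 92 of 473 in E7.5 posterior. A further cluster of the class, whose second-best class was visceral endoderm, held 284, 192 and 222 cells of the 3 libraries. Node and notochord-like cells held 81.5 CPM at E7.0 and 59.6 in E7.5 posterior, beside 81.0 and 120.2 CPM of Cdh1. Epiblast-like cells had 11.4, 8.56 and 11.2 CPM. Vim followed another order: it was highest in extraembryonic mesoderm-like cells, at 579.6 CPM at E7.25 and 401 in E7.5 posterior, and in haemato-endothelial-like cells at E7.25 (349 CPM), against 77.3, 156 and 137 CPM in mesoderm-like cells. With finer clusters (resolution 2) the order at E7.25 turned, with 314 CPM of Vim in extraembryonic mesoderm-like and 349.5 CPM in haemato-endothelial-like cells. The finer extraembryonic mesoderm-like class took in a cluster of 166 cells of E7.25, of which 52.4% were predicted doublets. The second-best class of that cluster was trophoblast.

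Each transcription factor had its own range of classes. Snai1 peaked in mesoderm-like cells (115, 60.2 and 71.2 CPM) and in the streak-like cells of E7.0 (86.3 CPM), and stood at 10.8, 3.57 and 5.63 CPM in definitive endoderm-like cells, next to their Cdh2. Its relative Snai2, which takes that role in the chick, was nearly absent there and reached 20.6 and 29.1 CPM in the extraembryonic mesoderm-like cells of E7.25 and E7.5 posterior (9.86 CPM at E7.25 with the finer clusters). Zeb2 was at 78.7, 82.1 and 83.0 CPM in mesoderm-like cells and at 181 CPM in haemato-endothelial-like cells, but already had 19.6, 38.6 and 38.0 CPM in epiblast-like cells. Zeb1 was highest in extraembryonic mesoderm-like (19.05 and 14.4 CPM) and haemato-endothelial-like cells (17.2 CPM), and with the finer clusters it had 10.8 and 16.7 CPM in these classes at E7.25. The finer extraembryonic mesoderm-like values of Snai2 and Zeb1 include the cluster rich in predicted doublets. Twist1 was highest in mesoderm-like cells, with 42.2, 57.1 and 34.0 CPM. It also read 17.8, 21.8 and 14.7 CPM in visceral endoderm-like cells, an extraembryonic epithelium with 67.5 to 88.9 CPM of Cdh1. At E7.25 that class included a cluster in which 67.6% of cells were predicted doublets.

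**Figure D1:**
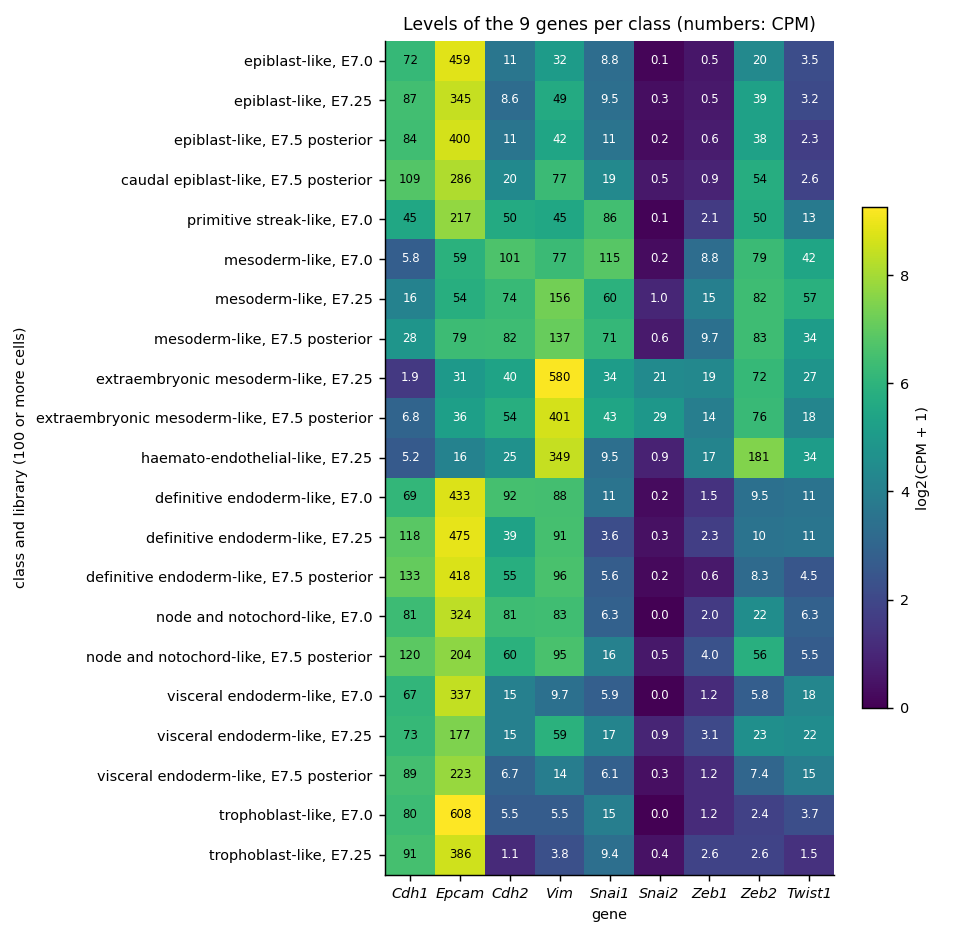
Levels of the 9 genes (columns) in each class and library with at least 100 cells (rows), with CPM printed in each field and colour showing log2(CPM + 1). Cdh1 and Epcam are higher in the epiblast, endoderm, node and trophoblast rows than in the mesoderm-like rows, while Cdh2 is high in mesoderm-like (73.6 to 101 CPM), definitive endoderm-like (39.0 to 91.6 CPM) and node-like rows.

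Likeness of pattern was measured by Pearson correlation of log2(CPM + 5) over the 21 class and library units, which share libraries and depth, among 6193 genes. Cdh1 was closest to Esrp1, a splicing regulator of epithelial cells (r = 0.96), Tpd52 (0.89), Chchd10 (0.89) and the claudin Cldn6 (0.88). Cdh2 was closest to the membrane protease Mmp14 (0.90), H2afy2 (0.90), Adam19 (0.89) and Dynlrb1 (0.88). Snai1 was closest to Mesp1 (0.89), Pdlim2 (0.84), Mesp2 (0.84) and Wnt2 (0.84), and Vim to Fstl1 (0.93), Ndn (0.92), Fam89b (0.92) and Hs6st2 (0.91). Between the 9 genes, Cdh1 and Epcam correlated at 0.92, and Cdh1 and Cdh2 only at -0.38. The strongest opposite pairs with the epithelial genes were those of Zeb1, at -0.91 with Cdh1 and -0.95 with Epcam, although Zeb1 was among the least abundant.

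The switch was then read along Mesp1 dose. Each cell was thinned to 5000 UMIs, placed by its remaining Mesp1 UMIs (0, 1, 2 to 3, 4 to 7, 8 or more), and visceral endoderm-like and trophoblast-like clusters were left out. Mesoderm-like cells led the top bin (79.5%, 93.7% and 90.3% of its cells) and epiblast-like cells dose 0 (58.7%, 61.0% and 47.1%). Cdh1 had 69.8, 52.9, 30.2, 15.04 and 12.1 CPM along these bins at E7.0. At E7.25 it had 74.0, 40.1, 20.99, 16.99 and 10.8 CPM. In E7.5 posterior it had 89.4, 57.7, 31.2, 18.4 and 21.7 CPM, with overlapping intervals in the last pair of bins. Most of the difference lay between 0 and 4 UMIs of Mesp1, and cells with 1 UMI already stood lower than cells with none in each library.

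Epcam had the same order as Cdh1. It had 436, 297, 151, 94.03 and 92.04 CPM at E7.0, 287, 172, 71.5, 63.9 and 59.5 CPM at E7.25, and 321, 184, 98.2, 66.6 and 75.4 CPM in E7.5 posterior. Cdh2 ran the other way, with 36.9, 49.3, 73.1, 89.2 and 93.9 CPM at E7.0. At E7.25 it had 20.3, 47.4, 74.0, 73.8 and 72.2 CPM, level from 2 UMIs on, and in E7.5 posterior 25.8, 53.2, 73.2, 89.0 and 84.6 CPM. Together the pair gives the Cdh2 share of cadherin UMIs, which was 34.6, 48.2, 70.8, 85.6 and 88.6% at E7.0, 21.5, 54.2, 77.9, 81.3 and 87.0% at E7.25 and 22.4, 48.0, 70.1, 82.9 and 79.6% in E7.5 posterior. This share compares bins and is not a ratio of protein or of true transcript numbers.

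Snai1 had the widest range of the factors and did not level off. Its levels were 8.70, 35.4, 75.3, 104 and 128 CPM at E7.0, 11.3, 22.4, 42.3, 70.1 and 96.2 CPM at E7.25 and 15.1, 35.7, 63.6, 82.2 and 115 CPM in E7.5 posterior. Twist1 had 27.8, 35.8 and 35.9 CPM in the last 3 bins of E7.0, against 5.55 CPM at dose 0, and was level from 4 to 7 UMIs of Mesp1 on. In the later libraries its last 3 bins, at 54.4, 53.1 and 49.5 CPM and at 33.2, 36.7 and 30.6 CPM, had overlapping intervals. Zeb2 had 72.3, 71.8 and 81.2 CPM at 8 or more, against 17.99 CPM at dose 0 at E7.0 and a higher start of 50.3 and 47.7 CPM in the later libraries. Vim was not ordered by Mesp1, with 56.0 CPM at 8 or more against 55.2 CPM at dose 0 at E7.0 and its peak between (75.4 CPM at 4 to 7). Zeb1 had 5.76, 9.98 and 6.63 CPM at 8 or more, against 1.13, 5.03 and 2.41 CPM at dose 0.

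**Figure D2:**
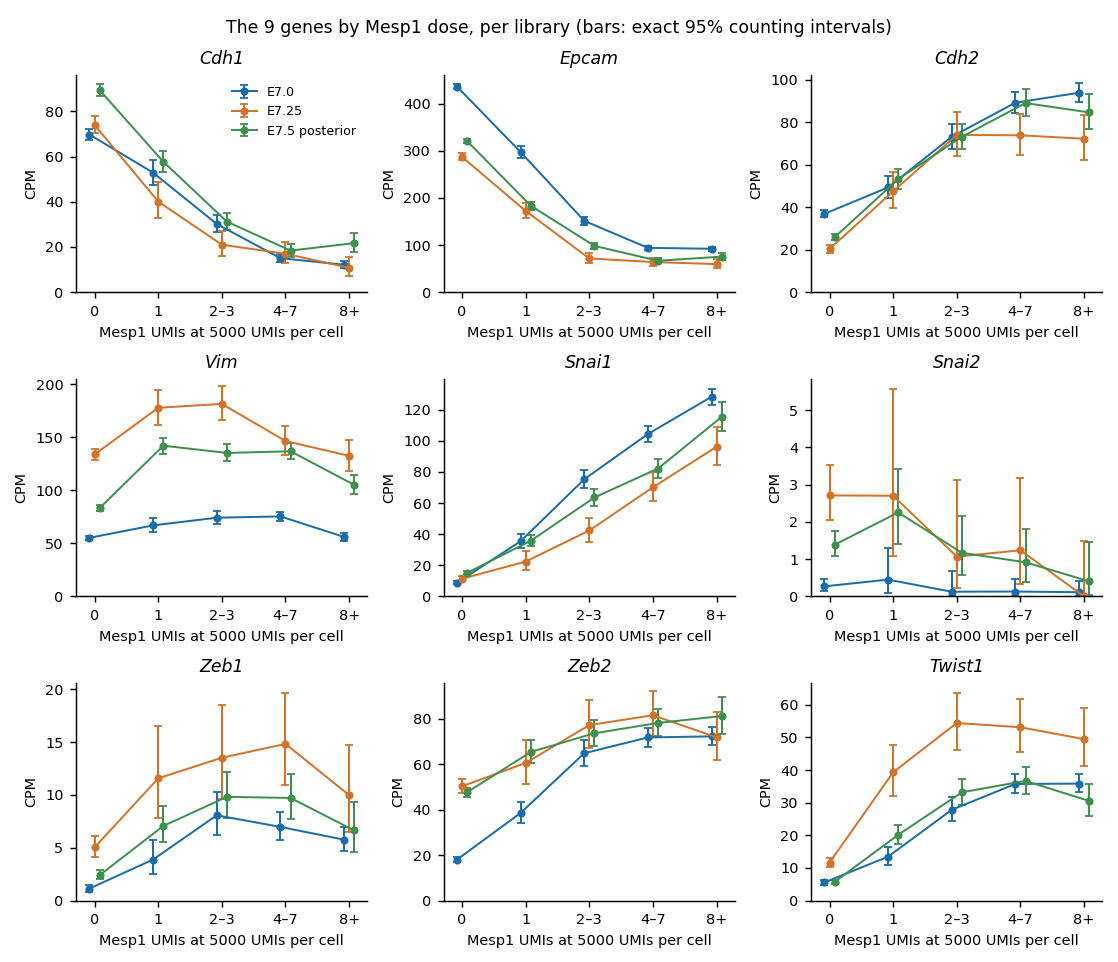
CPM of each gene by Mesp1 UMIs per cell thinned to 5000 UMIs, 1 line per library, with exact 95% counting intervals and axes from 0. Snai1 (128, 96.2 and 115 CPM at 8 or more) is highest at the top of the dose in each library. Cdh1 (12.1, 10.8 and 21.7 CPM) and Epcam are lowest there at E7.0 and E7.25. In E7.5 posterior both are lowest in the bin just below the top. Vim has no such order.

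Set as 8 or more against 0, Cdh1 had log2 ratios of -2.52 [-2.73 to -2.33], -2.78 [-3.39 to -2.23] and -2.04 [-2.33 to -1.77] in the 3 libraries, and Epcam -2.25, -2.27 and -2.09. Cdh2 had 1.35 [1.25 to 1.45], 1.83 [1.57 to 2.08] and 1.71 [1.55 to 1.87]. Snai1 had 3.88, 3.09 and 2.93, and Twist1 2.69, 2.09 and 2.42. At E7.0, 4 of 7 measured genes were called higher (Cdh2, Snai1, Zeb2, Twist1) and 2 lower (Cdh1, Epcam), where 2.49% and 4.25% of all genes were called. At E7.25 the counts were 3 and 2 of 7 (2.32% and 4.16% of all genes), with Zeb2 at 0.52. In E7.5 posterior they were also 3 and 2 of 7 (2.26% and 3.40%), with Zeb2 at 0.77. Without definitive endoderm-like and node-like clusters in any bin the Cdh2 ratio was 2.62 at E7.0, and 2.12 and 1.96 in the later libraries.

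Other genes of the junctions and of the mesenchymal program were read from 6 lists. All 7 measured genes of the epithelial program were called lower at E7.0 and at E7.25, and all 6 in E7.5 posterior, with median log2 ratios of -1.97, -2.17 and -1.72, where the median over all genes was near 0. They include the keratin Krt18, at 26.6, 41.1 and 42.6 CPM at 8 or more against 302, 453 and 239.9 CPM at dose 0, and Esrp1, the gene most like Cdh1, with ratios of -1.97, -2.06 and -1.30. Of 5 tight junction and polarity genes, 3, 4 and 3 were lower. The claudins Cldn6 (-3.92, -4.25 and -3.36) and Cldn7 (-4.22, -4.13 and -3.18) had larger ratios than Cdh1 in each library. The catenins that carry any cadherin were within 2-fold: Ctnnb1, with ratios of -0.14, -0.20 and -0.20, Ctnna1 (-0.17, -0.24 and -0.21) and Ctnnd1 (0.00, -0.25 and 0.31). Of the adherens and desmosome list, 0 of 4, 2 of 6 (Pkp2 and Dsg2) and 0 of 4 were lower and none higher.

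Of the mesenchymal matrix and cytoskeleton list, 5 of 8, 4 of 8 and 3 of 6 measured genes were higher and none lower, with medians of 2.05, 0.96 and 1.68. Fibronectin (Fn1) stood at 493, 444 and 521 CPM at 8 or more, against 61.6, 117 and 100.3 CPM at dose 0. Pdgfra, the PDGF receptor of early mesoderm, had ratios of 4.33, 2.47 and 2.53, and the mesenchymal cadherin Cdh11 had 3.10, 1.72 and 2.37. The matrix protein Sparc had -0.63, -0.53 and -0.31. Of other factors of the transition, 2 of 6, 4 of 7 and 5 of 8 were higher, among them Mesp2 and Tbx6 in each library and Eomes, which acts upstream of Mesp1, at E7.25 (1.27) and in E7.5 posterior (1.73). Of signals to the streak, 4 of 7, 4 of 8 and 4 of 7 were higher, including Tdgf1, the NODAL co-receptor, at 1.86, 3.28 and 3.72. Pdgfra, Mesp2, Tbx6, Eomes and Tdgf1 also served as class markers, as did other genes counted in these lists, though not as dose.

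Along T dose the picture differed. Cdh1 was lowest in the middle and highest at the top of the dose. It had 48.6, 34.0, 40.0, 54.3 and 56.8 CPM at E7.0 along the same bins, and the last bin there held only 22 cells. At E7.25 it had 57.3, 43.9, 42.1, 67.4 and 88.0 CPM, and in E7.5 posterior 67.8, 53.5, 66.4, 83.1 and 101 CPM. Epcam had 190.1 to 203 CPM in the bins with T at E7.0, against 318 CPM at T 0. It had 142 to 165 CPM with T against 245 CPM at T 0 at E7.25, and 160.3 to 175 CPM against 283 CPM in E7.5 posterior. The epithelial pair, which shared an order along Mesp1, had different orders along T. Cdh2 had 54.1, 78.2, 72.5, 67.3 and 51.8 CPM at E7.0, 31.5, 53.1, 51.2, 44.8 and 56.6 CPM at E7.25 and 35.1, 58.2, 61.3, 58.1 and 56.9 CPM in E7.5 posterior.

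Snai1 had a maximum at 2 to 3 UMIs of T, at 85.6, 50.5 and 55.8 CPM, against 45.2, 22.6 and 26.4 CPM at T 0. The top bin of Snai1 depends on depth, since its log2 ratio to T 0 in E7.5 posterior was 0.44 [0.04 to 0.81] here, -0.82 [-2.27 to 0.30] at 3000 UMIs per cell and 1.03 [0.80 to 1.25] at 8000. Twist1 peaked 1 bin earlier, at 24.9, 41.5 and 23.4 CPM, and had 24.7 [11.8 to 45.4], 11.0 and 8.48 CPM at 8 or more, against 16.99, 23.3 and 14.5 CPM at T 0. At E7.0 the interval of its top bin spans all the other bins. Mesp1 itself peaked at 2 to 3 UMIs of T, with 1112 CPM at E7.0, 790.3 at E7.25 and 535 in E7.5 posterior, and had 639, 376 and 219.9 CPM at 8 or more. Cells with the most T were thus not those with the most Mesp1.

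**Figure D3:**
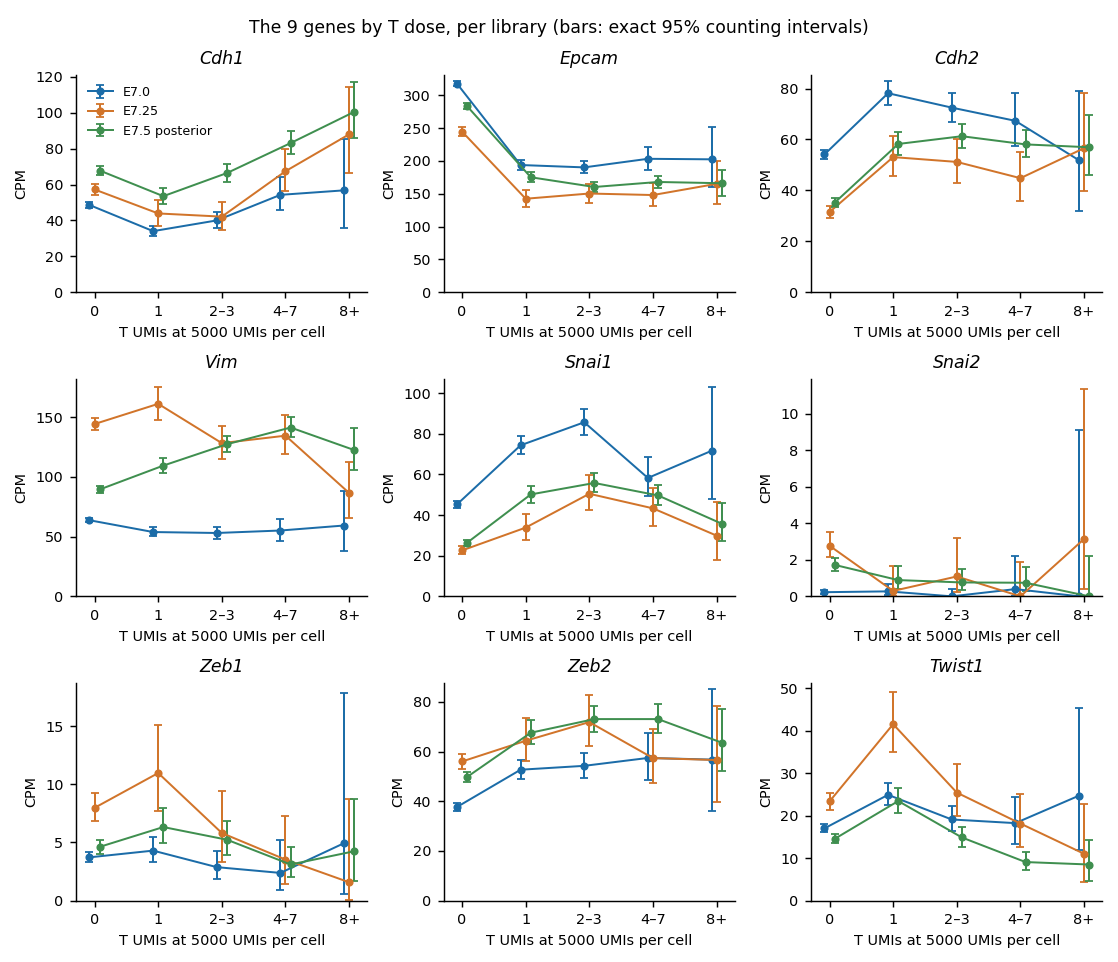
CPM of each gene by T UMIs per cell thinned to 5000 UMIs, 1 line per library, with exact 95% counting intervals and axes from 0. Cdh1 is lowest at 1 to 3 UMIs and reaches 88.0 and 101 CPM at 8 or more at E7.25 and in E7.5 posterior, while Epcam stays low from 1 UMI on.

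None of 7 measured genes was called at T 8 or more against T 0 at E7.0, where 5.12% of all genes were called higher and 3.99% lower, and none of 6 in E7.5 posterior (4.70% and 2.0%). At E7.25, 0 of 7 were higher and Twist1 was lower (-1.08 [-2.41 to -0.03]), where the shares over all genes were 4.98% and 3.98%. That call rests on 7 Twist1 UMIs in the top bin and is lost at 8000 UMIs per cell (-0.41), without predicted doublets (-0.99) and in all kept cells (-0.94). Cdh1 had ratios of 0.62 [0.21 to 1.01] at E7.25 and 0.57 [0.33 to 0.79] in E7.5 posterior, and Epcam -0.65, -0.57 and -0.77 in the 3 libraries. The Cdh2 ratio at E7.0, from 22 cells in the top bin, was -0.06 and became 0.69 with another random draw of the thinning. Vim had 59.2, 86.4 and 122 CPM at 8 or more, against 63.7, 144 and 89.4 CPM at T 0, so that it was lower at E7.25 (-0.74) and higher in E7.5 posterior (0.45). Extraembryonic mesoderm-like and haemato-endothelial-like cells were in these bins, and without them the ratio was 0.02 at E7.25 and 0.77 in E7.5 posterior. Tight junction genes Cldn7 and Crb3, a subunit of the apical CRUMBS complex, were called lower in each library, Cldn7 at -1.94, -2.42 and -2.01. No adherens or desmosome gene was called but Pkp2 at E7.25 (lower). Of the epithelial program, 0 of 4, 2 of 6 (Krt18 and Krt19) and 0 of 6 were lower. Mesenchymal genes were split, with 1 of 7, 3 of 9 and 1 of 6 higher and 1, 2 and 1 lower, Sparc among the lower in each library. Tbx6 was higher in each library, with 1 of 5, 2 of 5 and 1 of 6 factors called, as was Fgf4 among streak signals, of which 2 of 7, 5 of 9 and 3 of 7 were higher. Bmp4 was the 1 streak signal called lower, at E7.25 and in E7.5 posterior.

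Each dose was next read within a limited range of the other. Among cells with 2 or more UMIs of T, Cdh1 along Mesp1 dose had 63.8, 59.4, 50.2, 39.6 and 19.5 CPM at E7.0, 85.3, 66.9, 42.0, 33.1 and 15.7 CPM at E7.25, and 104, 68.7, 51.7, 33.9 and 38.1 CPM in E7.5 posterior. Snai1 in the same cells had 16.3, 41.5, 67.4, 105 and 136 CPM at E7.0, with 100.03 and 116 CPM at the top dose of the later libraries, against 17.1 and 25.6 CPM at Mesp1 0. Cdh1 in the last pair of bins of E7.5 posterior had overlapping intervals. The Cdh2 share of cadherin UMIs in these cells was 55.5, 49.5, 51.0, 62.3 and 80.1% at E7.0, with overlapping intervals in the first 3 bins, 29.9, 33.3, 56.9, 66.7 and 81.8% at E7.25, and 29.8, 49.3, 58.9, 69.4 and 67.5% in E7.5 posterior. At E7.0 most of these cells had little T, since 583 of them had 2 to 3 UMIs, 177 had 4 to 7 and 22 had 8 or more. The same bins held 295, 221 and 70 cells at E7.25 and 924, 730 and 161 in E7.5 posterior. T itself was not level along Mesp1 in these cells. Those with no Mesp1 had 524, 931 and 822 CPM of T, against 471, 725 and 641 CPM with 2 or more Mesp1 UMIs. Class was not held in these bins either. At E7.0 the bin with no Mesp1 held 95 definitive endoderm-like and 80 node-like cells among its 255. Without those classes its Cdh2 share was 28.1%.

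Epiblast-like and streak-like cells without Mesp1 were then pooled with caudal epiblast-like ones. Cdh1 along T dose in E7.5 posterior had 87.6, 101, 111, 143 and 122 CPM, and Epcam had 387, 315, 258, 245 and 207 CPM. Cdh2 in those cells had 11.5, 14.9, 28.7, 23.2 and 33.2 CPM and Vim 43.9, 57.1, 86.6, 112 and 133 CPM, so that Vim and Cdh1 were both highest in the upper bins, the last of which held 32 cells. The classes were not spread evenly along T, since caudal epiblast-like cells were 536 of the 2416 cells at T 0, 163 of 212 at 2 to 3 and all 32 at 8 or more. Within caudal epiblast-like cells alone, Cdh1 had 100.1 [93.0 to 108], 123, 111, 144 [127 to 163] and 122 CPM along the bins, Epcam 322, 283, 249, 243 and 207 CPM, and Vim 55.997, 57.4, 92.4, 118 and 133 CPM. Within epiblast-like cells alone, in the 3 bins with at least 20 cells, Cdh1 had 83.0, 72.4 and 107 CPM, with overlapping intervals between the first and last, Epcam 410.3, 356 and 305 CPM, and Vim 39.5, 56.5 and 57.2 CPM. In the pooled cells of E7.25 Vim had 42.3, 53.7, 81.9 and 90.2 CPM in the 4 bins with at least 20 cells, beside 85.8, 105, 69.5 and 105 CPM of Cdh1.

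Cells were also placed in 5 states by both genes, with 2 or more UMIs as positive and cells with 1 UMI of either left out, which held 4476 of 6654 cells at E7.0, 2376 of 3524 at E7.25 and 5101 of 7368 in E7.5 posterior. The states are given in the order epiblast and streak-like with neither (which takes in the caudal epiblast-like cells), T only, T and Mesp1, Mesp1 only, and mesoderm-like with neither. The Cdh2 share of cadherin UMIs was 13.2, 55.5, 67.4, 89.3 and 93.3% at E7.0, 8.08, 29.9, 68.9, 91.0 and 92.6% at E7.25, and 11.6, 29.8, 64.3, 87.2 and 67.2% in E7.5 posterior. Predicted doublets were 15.6% of the mesoderm-like cells with neither in E7.5 posterior, against 7.14% at E7.0 and 0% at E7.25. Much of the E7.0 value in T only cells came with 2 classes, since definitive endoderm-like (95 cells) and node-like cells (80 cells) made up most of its 255 cells. Without them the share in T only cells was 28.1, 25.9 and 28.3%, with overlapping intervals. Mesoderm-like cells were in the T only state too, 95 of 257 cells at E7.25 and 299 of 888 in E7.5 posterior. Between T only cells and epiblast and streak-like cells with neither, class and T are therefore not separated.

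The epithelial pair and Snai1 did not differ at the same steps. Cdh1 in T only cells (63.8, 85.3 and 104 CPM) was close to that of cells with neither (72.1, 85.8 and 87.6 CPM) at the first pair of stages and above it in E7.5 posterior. In T and Mesp1 cells it stood at 33.1, 29.3 and 42.3 CPM, with log2 ratios against T only of -0.95, -1.54 and -1.31, and in Mesp1 only cells at 11.2, 7.98 and 12.5 CPM. Epcam already differed at the first step, where class differs as well as T, at 292, 189.5 and 205 CPM in T only cells against 466, 361 and 387 CPM in cells with neither. Snai1 had 16.3, 17.1 and 25.6 CPM in T only cells and 111, 74.1 and 89.3 CPM in T and Mesp1 cells, a log2 ratio of 2.76 [2.36 to 3.19], 2.12 [1.61 to 2.66] and 1.80 [1.59 to 2.02]. From T and Mesp1 to Mesp1 only cells Snai1 was level at the first pair of stages (111 and 70.2 CPM in Mesp1 only cells) and lower in E7.5 posterior (75.8 [70.5 to 81.4] CPM in Mesp1 only cells), while Cdh1 differed by -1.56, -1.88 and -1.76. Twist1 and Zeb1 were instead higher in Mesp1 only than in T and Mesp1 cells, Twist1 by 0.53, 0.94 and 1.09 and Zeb1 by 1.0998, 2.05 and 1.0032 on the log2 scale.

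Vim already differed in each library between T only cells, which take in mesoderm-like, endoderm-like and node-like cells, and cells with neither, which do not. It had 65.0, 119 and 126 CPM in T only cells, against 33.3, 42.3 and 43.9 CPM in cells with neither. Zeb2 was at 30.8, 58.4 and 67.5 CPM in T only cells, against 18.4, 39.8 and 41.0 CPM. Snai2 stayed at or under 2.02 CPM in every state. Within the T and Mesp1 state, cells with a Snai1 UMI had 30.5, 22.2 and 36.7 CPM of Cdh1, and cells with none 34.7, 33.0 and 45.1 CPM. In the Mesp1 only state the pairs were 9.49, 2.40 and 9.88 CPM in cells with Snai1 and 12.4, 10.2 and 13.6 CPM in cells without. Cdh1 was lower beside Snai1 in all of these pairs, but the 95% intervals overlapped in each pair. Predicted doublets were 8.28, 1.15 and 13.9% of T and Mesp1 cells, against 5.49, 1.17 and 7.32% of T only cells.

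**Figure D4:**
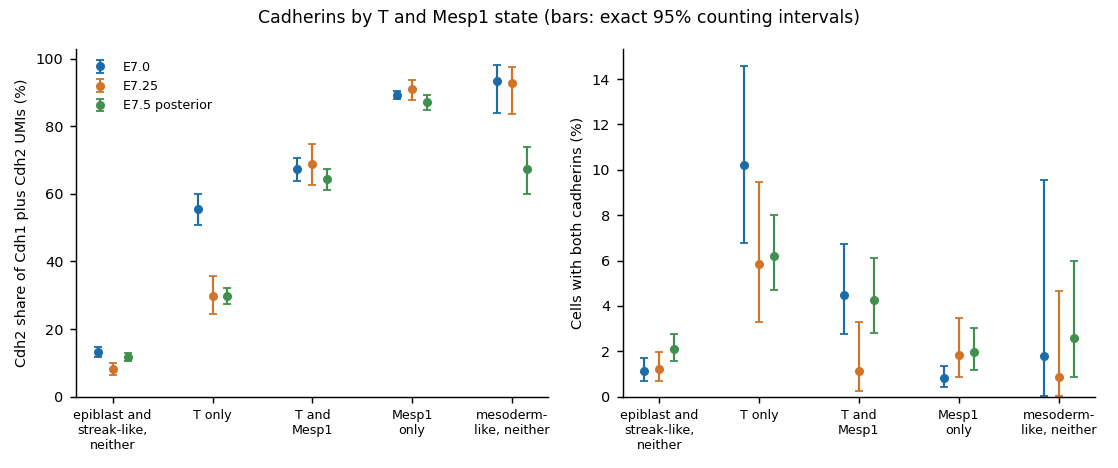
Left, the Cdh2 share of all Cdh1 and Cdh2 UMIs (%), and right, the share of cells with at least 1 UMI of each (%), by T and Mesp1 state and library, with exact 95% counting intervals. The Cdh2 share is 64.3 to 68.9% in T and Mesp1 cells of the 3 libraries, while the share with both is highest in T only cells (5.84 to 10.2%).

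Cells with at least 1 UMI of each cadherin at 5000 UMIs numbered 211 of 7327 (2.88% [2.51 to 3.29%]) at E7.0, 78 of 4685 (1.66% [1.32 to 2.07%]) at E7.25 and 242 of 7664 (3.16% [2.78 to 3.57%]) in E7.5 posterior. Without thinning the shares of these cells were 12.1, 5.10 and 9.81%, so the count depends on depth. Detection was sparse: 19.6, 24.8 and 25.7% of cells had a Cdh1 UMI and 22.7, 12.6 and 18.3% a Cdh2 UMI. A cell counted as holding 1 cadherin may hold the other below detection. Only 7, 2 and 9 cells had 2 or more UMIs of each, and none had 4 or more of each. Classes that should lack 1 of the genes give a rough background. Cdh2 was found in 2 of 101 (1.98% [0.24 to 6.97%]) trophoblast-like cells at E7.0 and 1 of 267 (0.375% [0.0095 to 2.07%]) at E7.25 (median 12870.5 and 9001.5 UMIs). Cdh1 was found in 2 of 125 (1.60% [0.19 to 5.66%]) haemato-endothelial-like cells at E7.25 (median 8317.5 UMIs), with all classes thinned alike. Neither class had 100 cells in E7.5 posterior.

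At E7.0 the largest group with both was definitive endoderm-like, with 96 of the 211 cells (45.5%), followed by epiblast-like (28), streak-like (27), node-like (26) and mesoderm-like cells (23). At E7.25 epiblast-like cells led with 22 of 78, before mesoderm-like (18) and definitive endoderm-like cells (17). In E7.5 posterior it was mesoderm-like cells with 74 of 242 (30.6%), then epiblast-like (52), caudal epiblast-like (50) and definitive endoderm-like cells (38). Read as a share of the class, cells with both were most frequent in node-like cells (14.1% at E7.0 and 10.0% in E7.5 posterior) and definitive endoderm-like cells (9.35, 5.59 and 8.86%). Streak-like cells of E7.0 had 3.54% and caudal epiblast-like cells of E7.5 posterior 4.05%. Epiblast-like cells had 1.25, 1.41 and 2.22% and mesoderm-like cells 1.01, 1.52 and 2.65%.

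By state, both cadherins were found in 10.2% [6.77 to 14.6%], 5.84% [3.30 to 9.44%] and 6.19% [4.70 to 7.99%] of T only cells. The other states had lower shares, at 4.46, 1.15 and 4.25% with T and Mesp1, 0.806, 1.84 and 1.96% with Mesp1 only, and 1.12, 1.198 and 2.11% in epiblast and streak-like cells with neither. T only cells without definitive endoderm-like and node-like clusters had 5.00, 3.14 and 4.60%. Of the cells with both, 44.5, 41.0 and 53.7% had a T UMI, against 16.7, 20.2 and 33.7% of cells with Cdh1 alone and 31.2, 35.7 and 49.0% of cells with Cdh2 alone. Mesp1 was found in 30.3, 26.9 and 33.9% of cells with both, between the 19.95, 12.4 and 17.4% of cells with Cdh1 alone and the 69.8, 67.6 and 67.6% of cells with Cdh2 alone.

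Predicted doublets were 8.06, 7.69 and 12.8% of cells with both, against 6.85, 4.59 and 7.42% of all cells at that depth, and median UMIs were 10980.0, 9159.5 and 10473.5, against 11828, 8642 and 9689. With predicted doublets, visceral endoderm-like and trophoblast-like clusters removed, the shares were 2.96, 1.87 and 3.04%, within the intervals given above.

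Over a whole library Cdh1 was found less often in cells with Cdh2. Of cells with Cdh2, 12.7% [11.2 to 14.4%] held Cdh1 at E7.0, 13.2% [10.6 to 16.2%] at E7.25 and 17.3% [15.4 to 19.4%] in E7.5 posterior, against 21.7, 26.5 and 27.6% of cells without Cdh2. Inside the classes the intervals overlapped. Among definitive endoderm-like cells Cdh1 was found in 25.8, 34.0 and 41.3% of cells with Cdh2 and in 27.0, 42.5 and 46.0% of cells without. Among caudal epiblast-like cells of E7.5 posterior the shares were 40.0% and 40.1%, and among streak-like cells of E7.0 17.8% and 20.5%. Among mesoderm-like cells they were 2.63, 5.01 and 8.08% with Cdh2 and 3.12, 7.78 and 10.3% without, and among node-like cells 40.6 and 47.5% with Cdh2 and 26.7 and 46.7% without. In all 17 class and library units with at least 20 Cdh2-positive cells the intervals of the pair overlapped, and the share was lower with Cdh2 in 13 of them and higher in 4. Among 14 units of state and library the intervals were apart in 1, Mesp1 only cells of E7.0 (2.22% with Cdh2 and 5.24% without). With predicted doublets removed that pair was 2.04 [1.06 to 3.54]% and 4.11 [2.96 to 5.53]%, which overlap, and 0 of the 14 units were apart. Overlap of intervals does not show that the shares are equal.

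**Figure D5:**
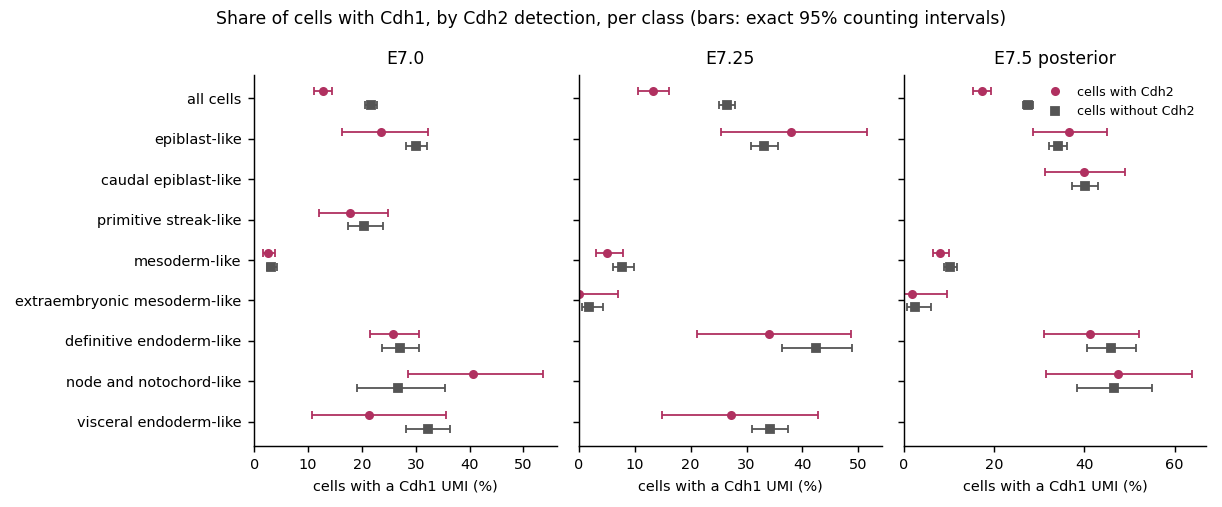
Share of cells with a Cdh1 UMI (%) among cells with Cdh2 (circles) and without Cdh2 (squares), over all cells and per class in each library, at 5000 UMIs per cell, with exact 95% counting intervals. The pair is apart over all cells (12.7% with and 21.7% without Cdh2 at E7.0) and overlaps in each class drawn.

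For Epcam, Snai1, Twist1 and Vim, the values of cells with both cadherins lay between those with 1, as did Zeb2 in the later libraries. At E7.0 the intervals of cells with both overlapped those with Cdh1 alone for Zeb2. For Vim at E7.0 they overlapped those with Cdh2 alone. Epcam stood at 337, 214 and 263 CPM in cells with both, against 432, 296 and 326 CPM with Cdh1 alone and 161, 96.5 and 117 CPM with Cdh2 alone. Snai1 had 28.5, 22.8 and 35.5 CPM with both, against 17.8, 10.6 and 18.8 CPM with Cdh1 alone and 80.4, 46.7 and 57.7 CPM with Cdh2 alone. Twist1 had 14.1, 20.5 and 9.21 CPM with both, against 30.2, 45.1 and 31.05 CPM with Cdh2 alone and 8.28, 9.58 and 4.21 CPM with Cdh1 alone. Vim had 73.3, 75.1 and 98.9 CPM with both, against 38.4, 51.7 and 66.3 CPM with Cdh1 alone and 76.3, 195 and 133.5 CPM with Cdh2 alone. Zeb2 had 20.2, 55.8 and 56.6 CPM with both, against 21.4, 27.5 and 45.6 CPM with Cdh1 alone and 58.4, 76.1 and 77.1 CPM with Cdh2 alone. T was higher with both than with either alone, at 237, 303 and 346 CPM against 115, 188 and 284 CPM with Cdh2 alone and 73.4, 123 and 214 CPM with Cdh1 alone. These groups of cells also differ in class, which was not held equal. Node-like cells, with 475 and 1093 CPM of T at E7.0 and in E7.5 posterior, were 12.3 and 7.85% of cells with both. They were 2.62 and 1.82% of cells with Cdh2 alone, and 2.61 and 4.05% with Cdh1 alone. Definitive endoderm-like cells were 45.5% of cells with both at E7.0, against 19.0% with Cdh2 alone and 14.4% with Cdh1 alone. Cells with both had 133, 162 and 165 CPM of Cdh1, against 133, 174 and 171 CPM with Cdh1 alone, and 138, 129 and 131 CPM of Cdh2, against 156, 154 and 159 CPM with Cdh2 alone. Because cells were chosen by these UMIs, these cadherin levels are a description.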

How the data were processed

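Droplet 3′ RNA libraries of 3 samples, 1 per group, were analysed. Per the file headers, the deposited matrices are unscaled whole-number UMI counts from Cell Ranger 6.0.1. The genome build used for counting is not given in the sources used here. Trypsin dissociation precedes capture, per the labels' protocols. GENCODE M21 held 32158 of the identifiers and lacked 127. The kept cells hold 108350108, 47672673 and 87940979 UMIs, in order of stage. Shares of cells and doses use cells thinned to 5000 UMIs, which leaves out 614, 509 and 774 shallower cells, and levels use all UMIs of the cells summed. Bins under 20 cells and classes under 100 cells were not read. Intervals are Clopper-Pearson for shares, Poisson for levels and, for ratios, conditional binomial.

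Predicted doublets are the highest scores at 0.8% per 1000 cells, with 2 simulated doublets per cell. Clusters come from the 2000 most variable genes per library without the 9 genes, T and Mesp1, 30 principal components, 15 neighbours and Leiden clustering (leidenalg 0.10.2) at resolution 1, into 25 clusters. A cluster took the class with most markers among its top 100 genes, at least 3 of them, and 1 cluster of shallow cells stayed unnamed. Normalization factors came from edgeR 4.0.16. Ratios and their intervals were tested on simulated data, and thinning was checked against its expected mean. Genes named are the 9, T, Mesp1, the 4 genes most like Cdh1, Cdh2, Snai1 and Vim, and listed genes at 20 CPM or more. The 9 genes, the 6 lists and the 12 marker lists were chosen with earlier results of these data known. The splits of one dose within the other, by Snai1 and by class came after the first results.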

Additional observations from a re-analysis of the deposited data

Results flagged for a closer look

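Vim differed in direction along T dose between libraries, with intervals on opposite sides of 0. Its log2 ratio at T 8 or more against T 0 was -0.74 [-1.15 to -0.35] at E7.25 and 0.45 [0.24 to 0.66] in E7.5 posterior. The difference between the libraries was not tested. Extraembryonic mesoderm-like and haemato-endothelial-like cells, with 579.6 and 349 CPM of Vim at E7.25, are in these bins. Without them, an alternative chosen after seeing the data, the ratios were 0.02 [-0.39 to 0.41] at E7.25 and 0.77 [0.56 to 0.97] in E7.5 posterior.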

How the results depend on the processing

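No paired analysis was possible because each group is 1 library. The share of cells with both cadherins at E7.0, E7.25 and in E7.5 posterior was 1.23, 0.805 and 1.19% at 3000 UMIs per cell, 5.85, 3.72 and 6.28% at 8000, 0.0955, 0.0427 and 0.117% with 2 UMIs of each required, and 1.46, 1.201 and 2.63% without definitive endoderm-like and node-like clusters, chosen after seeing the data. The Cdh1 ratio along Mesp1 was -2.80 at E7.0 at 3000 UMIs and, with predicted doublets removed, -2.81 at E7.0 and -2.35 in E7.5 posterior. The Cdh2 ratio in all kept cells was 1.504 (E7.0) and 2.24 (E7.25), 1.39 in E7.5 posterior at 3000 UMIs, and 2.62, 2.12 and 1.96 without definitive endoderm-like and node-like clusters. The Cdh2 share of cadherin UMIs in T and Mesp1 cells at E7.0 was 72.9% with 1 UMI as positive and 54.2% with 4, and in E7.5 posterior 68.2% at 3000 UMIs and 69.4% without predicted doublets. The cause was not tested in any of these. Counts of the 9 genes past 2-fold moved by 1: at T 8 or more, 1 was higher at E7.25 at 8000 UMIs or in all kept cells and 1 in E7.5 posterior at 8000 UMIs, and 0 were lower at E7.25 at 8000 UMIs, without predicted doublets or in all kept cells. In E7.25 against E7.0, 0 were higher and 2 lower with trimmed mean factors, 0 lower at most 5% mitochondrial UMIs, and 2 higher with no minimum level, which also gave 1 higher in E7.5 posterior against E7.0. No value past 2-fold changed direction under any alternative run. Ratios within 2-fold did: along Mesp1, Vim at E7.25 (-0.01) was 0.27 at 8000 UMIs and 0.35 in all kept cells, and in E7.5 posterior (0.34) -0.17 at 3000 UMIs. Along T they include Cdh2 at E7.0 (-0.06), at 0.69 with another random draw, Zeb2 at E7.0 (0.59), at -0.84 with that draw, and Snai1 in E7.5 posterior (0.44), at -0.82 at 3000 UMIs. Of 92 class levels at 20 CPM or more, 5 moved over 1.5-fold at Leiden resolution 2, all at E7.25: Epcam (115 CPM), Vim (314) and Snai2 (9.86) in extraembryonic mesoderm-like cells, and Vim (26.3) and Zeb2 (14.7) in visceral endoderm-like cells. At that resolution the extraembryonic mesoderm-like class of E7.25 included a cluster with 52.4% predicted doublets. Depth limits Snai2 and Zeb1 in every bin, and the top T bin of E7.0. At 3000 UMIs the top T bins of E7.0 and E7.25 held too few cells to give a value, as did that of E7.0 without definitive endoderm-like and node-like clusters.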
